A study of Mus musculus with 20 samples.

Results

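The TAM receptors Axl, Mertk and Tyro3 and their ligands Gas6 and Pros1 were followed across microglia libraries from mice with and without the Braf V600E allele. The 5 genes, 3 receptors and 2 ligands, were taken by symbol from a count table of 55487 gene identifiers, and all 5 were among the 16595 genes tested. The table holds 20 bulk RNA libraries from 10 mice, 1 cortex-labelled and 1 brainstem-labelled library per mouse, made with a low-input SMART-Seq kit. The series compares mutant with control microglia at 2 months and at an end-stage whose age is not given in the labels used here.

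The mutant mice (VE) had the genotype label Braf VE; CX3 HET. The design is Cx3cr1-driven CreER with a loxP-stop-loxP Braf V600E allele, switched on in embryos by a single 37.5 mg per kg injection of 4-hydroxytamoxifen into the mother at E9.5. There were 2 VE mice (M1376 and M1524) and 2 Ctrl mice (M1375 and M1521) at end-stage, and 3 VE mice (M2617, M2621 and M2624) and 3 Ctrl mice (M2618, M2629 and M2633) at 2 months. The 2-month Ctrl mice and M1521 were labelled Braf WT; CX3 HET, whereas M1375 was labelled Braf VE; CX3 WT, so the 2 end-stage Ctrl mice differ in both alleles. The labels give the same tamoxifen protocol for all 10 mice. How microglia were separated from the tissue is not given in the sources used here, and gene counts do not show which Braf allele was read.

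TAM receptors are receptor tyrosine kinases that do not bind dying cells directly. Gas6 and protein S, the product of Pros1, are vitamin K-dependent proteins that hold on to phosphatidylserine on the dying cell with one end and to the receptor with the other, and so start engulfment. In brain, Mertk is known as the main TAM receptor of resting microglia, Axl is known to be induced in inflamed or disease-associated microglia, and Tyro3 is known mainly from neurons. Gas6 binds all 3 receptors, whereas protein S is known as a ligand of Tyro3 and Mertk. In bulk libraries, fewer cells of a type and less RNA per cell cannot be told apart.

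The labels limit what follows. The 2-month records name their mice in conflicting ways. For 5 of 6 mice the title and the description, which names the count column, carry different mouse numbers, and for 4 (M2617, M2618, M2621 and M2633) the genotype changes with the number used. Here 2-month genotype follows the mouse number of the count column, and the genotype of the sample record is given beside it. Summed transcripts of 14 Hox genes, which pattern the hindbrain and not the cortex, spanned 0.325 to 1.19 CPM (counts scaled to a common library size) in brainstem-labelled libraries and 0.600 to 4.04 CPM in cortex-labelled libraries, with the cortex-labelled library above its partner in 9 of 10 mice. The region words below are therefore those of the labels only. Libraries held 9395203 to 21171114 counts, and 3 counts, used as the floor for a count of 0, correspond to 0.147 to 0.318 CPM. Against the label microglia, 10 of 10 microglia markers had counts in all 8 groups, and their sum spanned 34617 to 68985 CPM.

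Axl was the member that passed the test of genotype, in cortex-labelled libraries at both stages under the mouse-number reading, and it was higher in VE libraries. Its gene lies on the minus strand of chromosome 7, from 25757273 to 25788705 in GRCm38, with 5033 exonic bases. In the end-stage cortex-labelled libraries Axl stood at 1084 CPM (M1376) and 2117 CPM (M1524) in VE mice, against 17.9 CPM (M1375) and 66.7 CPM (M1521) in Ctrl mice. Both VE libraries lay above both Ctrl libraries. Here and below, how many of all tested genes separate their groups in this way was not counted. The log2 difference was 5.23 ± 1.05 (SE) with an adjusted p of 0.00908 in edgeR's quasi-likelihood test with Benjamini-Hochberg adjustment over all genes. Axl was the 1 of 5 members past the threshold of 0.05 in that comparison, in which 4.01% of the tested genes were called. Without the control M1375 the difference was 4.56 with an adjusted p of 0.109. With the 2-month mice grouped by sample record, which changes only the shared estimate of spread at end-stage, the difference was 5.23 ± 1.90 with an adjusted p of 0.214, and 0 of 5 members were called among 1.03% of all genes.

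The promoters of Axl and Mertk are shown because the Axl transcript varied most and the Mertk transcript little across the libraries. Capitals mark GGGCGG on either strand, the core letters bound by Sp1. Sequences are RefSeq's 300-base windows around the annotated start in GRCm38.p6, at chr7:25788684-25788983 on the minus strand for Axl and chr2:128698665-128698964 on the plus strand for Mertk, each written 5′ to 3′ along the gene.
Axl: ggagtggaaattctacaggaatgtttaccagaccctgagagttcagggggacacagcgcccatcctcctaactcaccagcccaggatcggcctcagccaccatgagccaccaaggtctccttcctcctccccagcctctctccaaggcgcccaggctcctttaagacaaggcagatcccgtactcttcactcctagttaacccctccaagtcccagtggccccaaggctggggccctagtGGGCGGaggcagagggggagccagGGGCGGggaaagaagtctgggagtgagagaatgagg
Mertk: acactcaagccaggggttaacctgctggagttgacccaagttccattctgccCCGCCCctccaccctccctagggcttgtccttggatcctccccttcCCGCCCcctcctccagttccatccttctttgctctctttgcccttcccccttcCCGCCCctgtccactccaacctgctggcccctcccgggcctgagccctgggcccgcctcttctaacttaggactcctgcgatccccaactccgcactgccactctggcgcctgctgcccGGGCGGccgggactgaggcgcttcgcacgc
Axl held 2 such matches and Mertk 4, against 6 in Tyro3, 4 in Gas6 and 5 in Pros1, and 35.7% of the 32851 promoters in the table held at least 1. TGANTCA (AP-1), GAAANNGAA (the core of the interferon-stimulated element) and CACGTG (an E-box), searched on both strands, had 0 matches in all 5 promoters, with shares of all promoters of 7.81%, 8.56% and 7.15%. A match, or its absence in these windows, is a description of letters only.

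In the end-stage brainstem-labelled libraries Axl stood at 106 CPM (M1376) and 461 CPM (M1524) in VE mice, against 1.65 CPM (M1375) and 10.7 CPM (M1521) in Ctrl mice. The groups did not overlap, but each library was well below the cortex-labelled library of the same mouse. The log2 difference of 5.50 ± 1.08 had an adjusted p of 0.0515 in edgeR and did not pass. Here 0 of 5 members were called, where 0.151% of all genes were, and 1 (Axl) had an unadjusted p under 0.05, as did 1731 of the 16595 genes. DESeq2 called 1 member, Axl (adjusted p = 4.87e-05), and limma-voom 0. Axl also passed in edgeR without M1376 (6.21, adjusted p = 0.0345), without M2618 (5.51, adjusted p = 0.0467) and without M2633 (5.51, adjusted p = 0.0464). By sample record the adjusted p was 0.668, and 0.00603% of all genes were called.

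At 2 months, cortex-labelled Axl was at 915 CPM (M2617), 716 CPM (M2621) and 711 CPM (M2624) in VE mice, against 36.4 CPM (M2618), 34.4 CPM (M2629) and 11.2 CPM (M2633) in Ctrl mice. All 3 VE libraries lay close together and far above all 3 Ctrl libraries. The log2 difference was 4.83 ± 0.85 with an adjusted p of 0.00269 in edgeR. Axl was the 1 of 5 members called, in a comparison that called 5.45% of all genes. In the 2-month brainstem-labelled libraries the values were 129 CPM (M2617), 32.8 CPM (M2621) and 35.8 CPM (M2624) in VE mice, against 3.73 CPM (M2618), 19.3 CPM (M2629) and 6.60 CPM (M2633) in Ctrl mice. The groups again did not overlap, with M2617 standing above the other 2 VE mice. That difference, 2.73 ± 0.79, did not pass (adjusted p = 0.248). Of the 5 members 0 were called by edgeR, DESeq2 or limma-voom, where edgeR called 0.0362% of all genes. An unadjusted p under 0.05 was found for 1 member (Axl) and for 1461 of the 16595 genes.

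**Figure D1:**
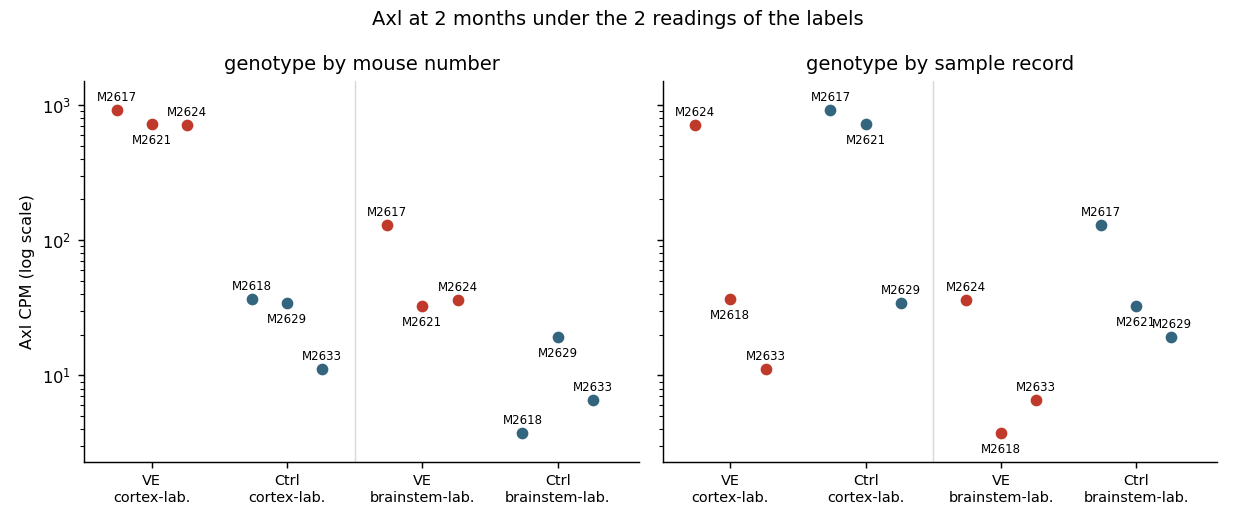
Axl in CPM (log scale) in the 12 libraries at 2 months, with VE left of Ctrl, grouped by the mouse number of the count column (left panel) and by the sample record (right panel). Points are libraries with their mouse; the same values separate completely in the left panel and are mixed in the right one.

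The 2-month result rests on the reading of the labels. By sample record the VE libraries would be M2618, M2624 and M2633 and the Ctrl libraries M2617, M2621 and M2629, and the Axl values of the groups overlap in both regions. The log2 difference was then -1.13 ± 1.31 in cortex-labelled libraries and -1.98 ± 1.36 in brainstem-labelled libraries, with an adjusted p of 1 in each, and 0.00603% of all genes were called in either comparison. Without the 4 mice whose genotype differs between the readings, which leaves M2624 as the lone VE mouse and M2629 as the lone Ctrl mouse with their spread taken from the other groups, Axl differed by 4.38 in cortex-labelled libraries (adjusted p = 0.523) and by 0.88 in brainstem-labelled libraries (adjusted p = 1). The plot of Axl at 2 months shows both groupings.

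Mertk, the receptor best known for microglial engulfment of dying cells, passed the test in none of the 4 genotype comparisons and stayed between 265 and 541 CPM in all 20 libraries. Its gene is on the plus strand of chromosome 2, from 128698956 to 128802894, with 4336 exonic bases, and an antisense gene that overlaps it shares 0 exonic bases with it. Cortex-labelled end-stage libraries held 437 CPM (M1376) and 434 CPM (M1524) in VE mice, against 378 CPM (M1375) and 392 CPM (M1521) in Ctrl mice. The VE pair lay above the Ctrl pair, but the difference of 0.18 ± 0.22 on the log2 scale was smaller than its standard error (adjusted p = 0.733). In the end-stage brainstem-labelled libraries it was at 447 CPM (M1376) and 494 CPM (M1524) in VE mice, against 541 CPM (M1375) and 408 CPM (M1521) in Ctrl mice, with overlap and a log2 difference of -0.01 ± 0.22. The cortex-labelled values at 2 months were 312 CPM (M2617), 265 CPM (M2621) and 362 CPM (M2624) in VE mice, against 465 CPM (M2618), 312 CPM (M2629) and 358 CPM (M2633) in Ctrl mice. They overlapped, with a log2 difference of -0.27 ± 0.18 (adjusted p = 0.436), and by sample record the difference had the other sign, 0.41 ± 0.15 (adjusted p = 1), with no overlap. The 2-month brainstem-labelled libraries held 357 CPM (M2617), 370 CPM (M2621) and 348 CPM (M2624) in VE mice, against 280 CPM (M2618), 445 CPM (M2629) and 341 CPM (M2633) in Ctrl mice. The VE values lay inside the Ctrl range and the log2 difference was 0.01 ± 0.18, against -0.27 ± 0.15 by sample record (adjusted p = 1), where the groups did not overlap.

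Tyro3, on the plus strand of chromosome 2 from 119797733 to 119818104, was close to absent. It passed the low-count filter through the Ctrl libraries in which it was highest, so its test lends no support to a difference. It had 63 counts over all 20 libraries, between 0 and 16 in each, with 0 counts in 8 libraries and 3 counts or fewer in 14. In the 2-month cortex-labelled libraries it had 0, 0 and 0 counts in the VE mice M2617, M2621 and M2624, against 15 counts (M2618), 16 counts (M2629) and 3 counts (M2633) in the Ctrl mice. With 3 counts over the group as the floor, the pooled counts were at least 11.7-fold lower in VE libraries. That bound covers counting error only and not the spread between mice, with most Ctrl counts from M2618 and M2629. The adjusted p was 0.0709 in edgeR, 0.0287 in limma-voom and 1 by sample record, where the counts were mixed between the groups. The end-stage cortex-labelled libraries held 1 count (M1376) and 0 counts (M1524) in VE mice, against 2 counts (M1375) and 5 counts (M1521) in Ctrl mice, and no brainstem-labelled library held more than 8 counts. At this depth a Tyro3 difference could not be judged in any comparison.

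**Figure D2:**
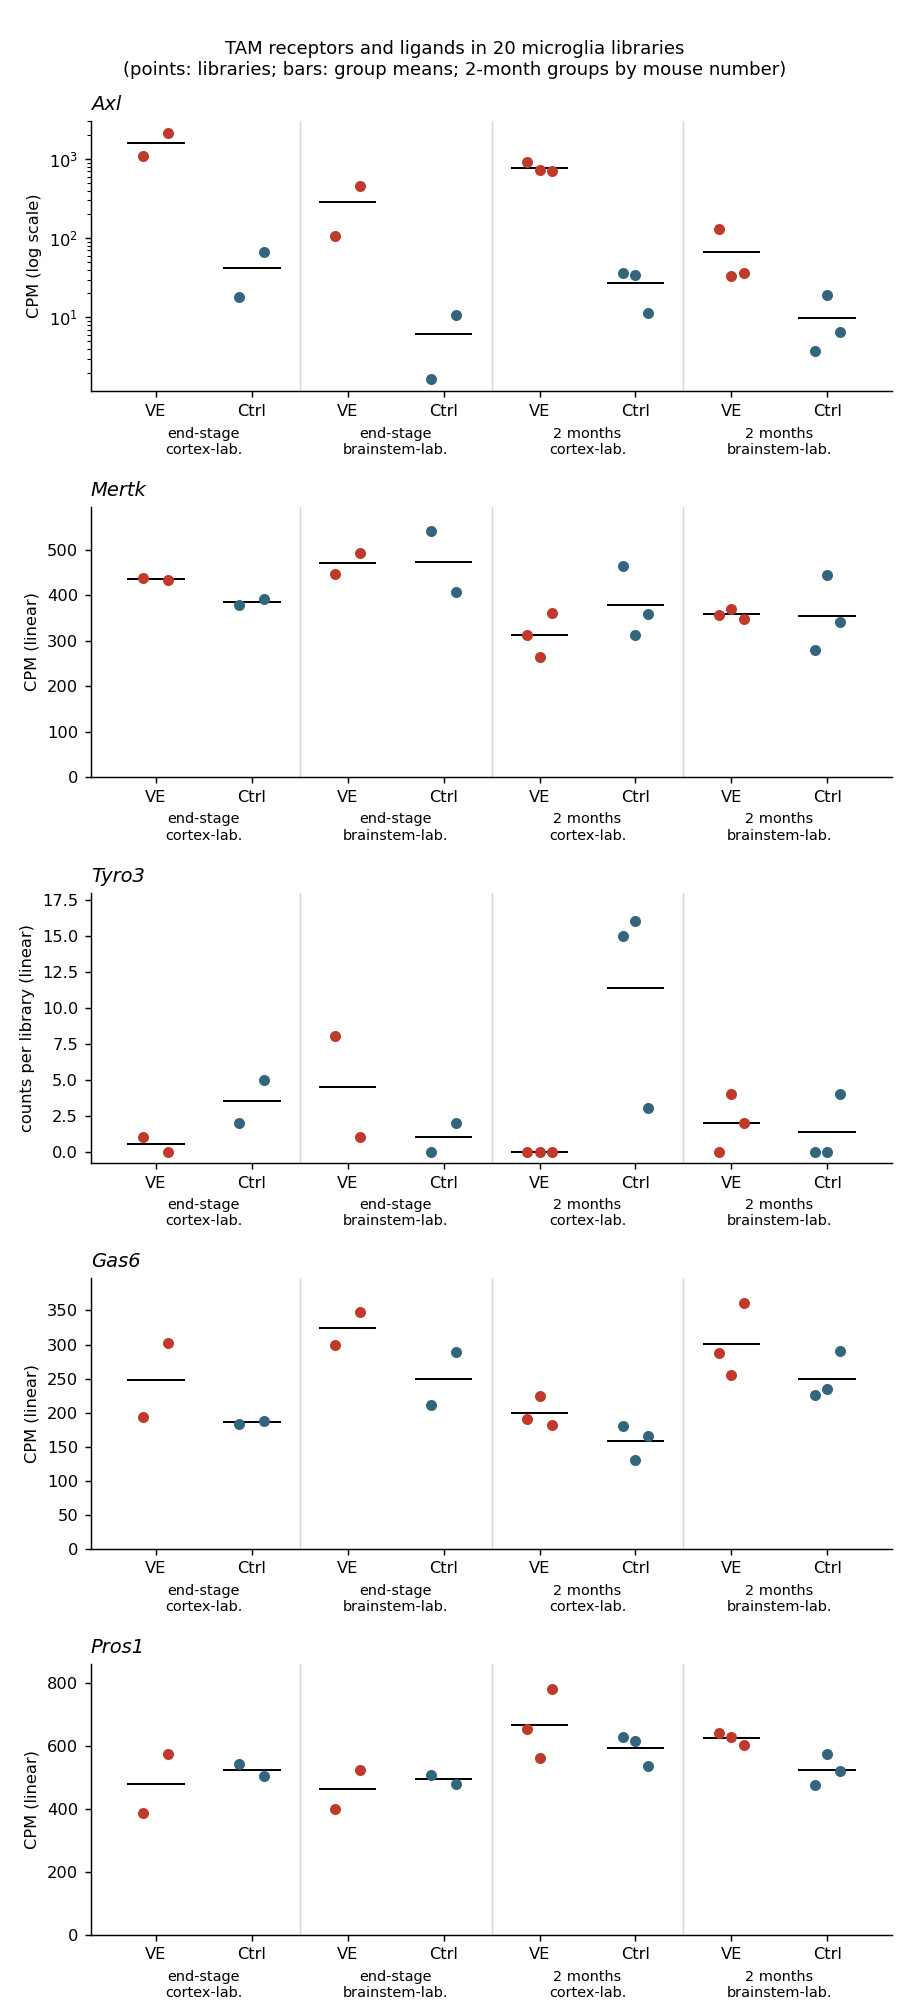
Each member in all 20 libraries, in CPM (Axl on a log scale, Mertk, Gas6 and Pros1 on a linear scale) or counts (Tyro3), with VE left of Ctrl in each pair and 2-month genotype by mouse number. Points are libraries and bars are group means. Axl shows VE libraries above Ctrl libraries in all 4 pairs, while Mertk stays between 265 and 541 CPM. How many of all tested genes separate so was not counted.

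Gas6, the ligand that binds all 3 receptors, averaged higher in VE than in Ctrl libraries in each pair of groups under the mouse-number reading, but no difference passed. Its gene is on the minus strand of chromosome 8, from 13465374 to 13494490, and shares 34 exonic bases with Tmem255b on the other strand. The end-stage cortex-labelled libraries held 193 CPM (M1376) and 302 CPM (M1524) in VE mice, against 183 CPM (M1375) and 188 CPM (M1521) in Ctrl mice. M1524 was high and M1376 close to both controls, and the log2 difference was 0.41 ± 0.23 (adjusted p = 0.373). The end-stage brainstem-labelled values were 299 CPM (M1376) and 348 CPM (M1524) in VE mice, against 211 CPM (M1375) and 289 CPM (M1521) in Ctrl mice, a difference of 0.37 ± 0.23 on the log2 scale with no overlap (adjusted p = 0.621). At 2 months, cortex-labelled Gas6 was at 191 CPM (M2617), 225 CPM (M2621) and 182 CPM (M2624) in VE mice, against 180 CPM (M2618), 131 CPM (M2629) and 165 CPM (M2633) in Ctrl mice. The lowest VE and the highest Ctrl library almost met, and the log2 difference was 0.33 ± 0.19 (adjusted p = 0.370), or -0.05 ± 0.22 by sample record. The 2-month brainstem-labelled values were 287 CPM (M2617), 255 CPM (M2621) and 361 CPM (M2624) in VE mice, against 226 CPM (M2618), 234 CPM (M2629) and 290 CPM (M2633) in Ctrl mice. They overlapped, with a log2 difference of 0.27 ± 0.19 (adjusted p = 0.727), or 0.18 ± 0.22 by sample record.

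Pros1, which encodes protein S, a plasma anticoagulant as well as a TAM ligand, lies on the plus strand of chromosome 16 from 62854307 to 62929346. The end-stage cortex-labelled libraries held 387 CPM (M1376) and 575 CPM (M1524) in VE mice, against 542 CPM (M1375) and 505 CPM (M1521) in Ctrl mice. The VE mice lay on either side of both controls, and the log2 difference was -0.12 ± 0.19 (adjusted p = 0.805). The end-stage brainstem-labelled values had the same order of mice, 400 CPM (M1376) and 525 CPM (M1524) in VE mice, against 509 CPM (M1375) and 480 CPM (M1521) in Ctrl mice, and a log2 difference of -0.10 ± 0.19. At 2 months, cortex-labelled Pros1 was at 653 CPM (M2617), 562 CPM (M2621) and 783 CPM (M2624) in VE mice, against 628 CPM (M2618), 617 CPM (M2629) and 538 CPM (M2633) in Ctrl mice. M2624 was the highest of all 20 libraries, and the overlapping groups differed by 0.16 ± 0.16 on the log2 scale, or by 0.09 ± 0.17 by sample record. The 2-month brainstem-labelled values were 643 CPM (M2617), 628 CPM (M2621) and 603 CPM (M2624) in VE mice, against 476 CPM (M2618), 576 CPM (M2629) and 521 CPM (M2633) in Ctrl mice. Those groups did not overlap, but the log2 difference of 0.25 ± 0.16 did not pass (adjusted p = 0.691) and was -0.21 ± 0.17 by sample record.

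**Figure D3:**
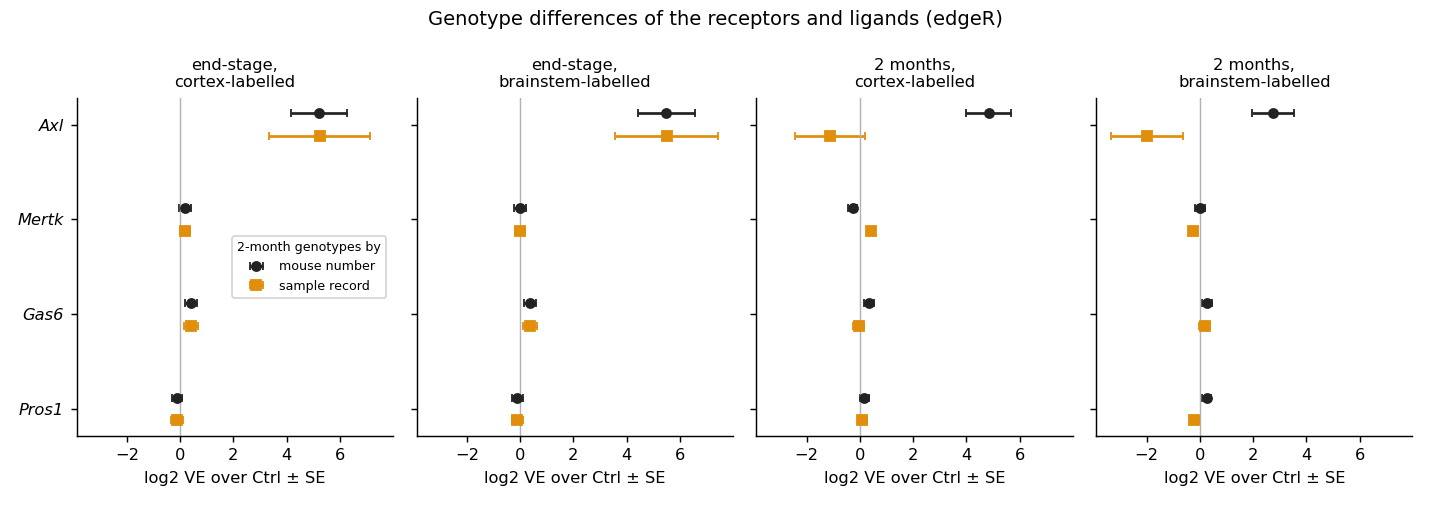
Log2 differences (VE over Ctrl) from edgeR, with standard errors derived from its F statistic, for 4 members in the 4 genotype comparisons. The 2-month mice are grouped by mouse number (black) or by sample record (orange). Axl is at 5.23 and 5.50 at end-stage under the mouse-number reading and moves below 0 at 2 months by sample record, while Mertk, Gas6 and Pros1 lie between -0.27 and 0.41 in every panel.

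Per kilobase of exon, where genes can be compared, Pros1 was the most abundant member with a median of 135 CPM per kb over the 20 libraries. Gas6 had a median of 88.4 and Mertk of 86.3 CPM per kb, 2 levels whose ranges (51.4 to 142 and 61.2 to 125 CPM per kb) overlap almost wholly. Axl had a median of 7.18 CPM per kb and by far the widest range, 0.328 to 421 CPM per kb. Tyro3 came last in every library, with a median of 0.0128 CPM per kb. The order Pros1, Gas6, Mertk, Axl, Tyro3 held in 6 libraries and the order with Mertk ahead of Gas6 in another 6, whereas Axl led in 4.

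Axl exceeded Mertk per kilobase in 5 of 5 VE cortex-labelled libraries, by ratios of 1.70 to 4.20, under the mouse-number reading. The ratio was 0.0764 to 0.804 in the 5 VE brainstem-labelled libraries and 0.00263 to 0.147 in the 10 Ctrl libraries, so that Mertk was the main receptor transcript in all of those. By sample record, 2 of the libraries with the higher Axl, M2617 and M2621, would be Ctrl. The ligand ratio moved less: Gas6 over Pros1 per kilobase spanned 0.341 to 1.20 over all libraries and passed 1 in 2 of them, both from end-stage VE brainstem-labelled samples.

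**Figure D4:**
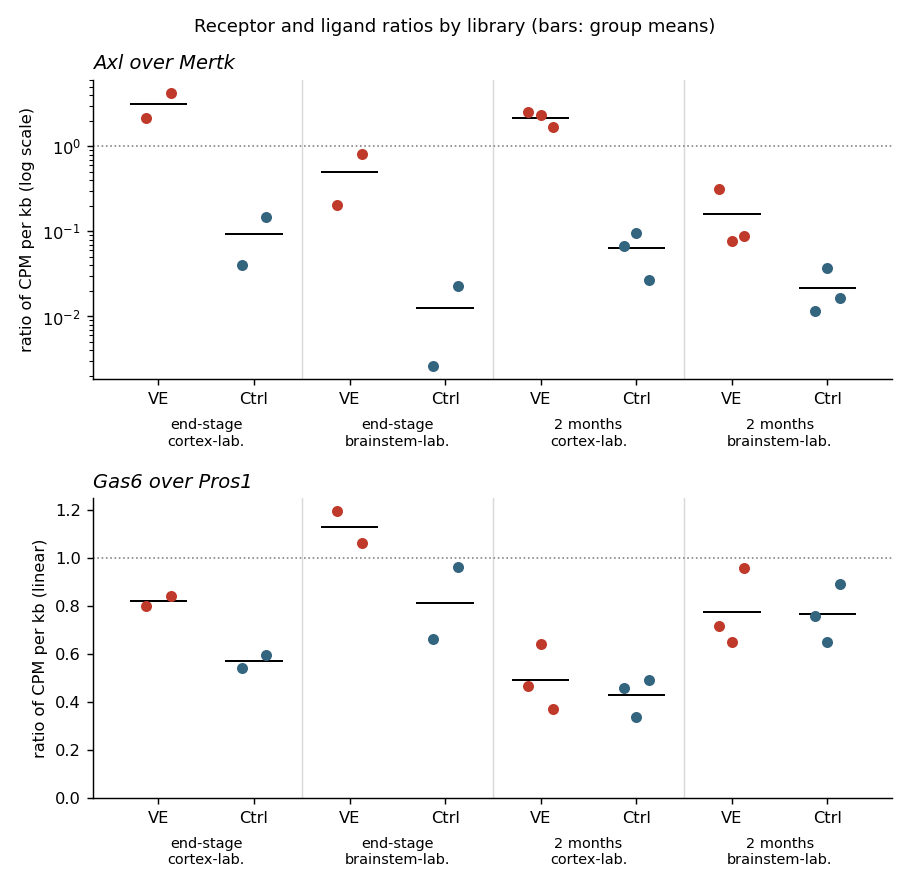
Ratios of CPM per kilobase in each library, Axl over Mertk on a log scale and Gas6 over Pros1 on a linear scale, with VE left of Ctrl in each pair and bars for group means. The dotted line marks equal levels; Axl is above Mertk in the 5 VE cortex-labelled libraries and in none of the other 15.

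The comparison of the 2 libraries of each mouse uses both genotypes. In 10 of 10 mice Axl was lower in the brainstem-labelled than in the cortex-labelled library, by log2 values between -4.45 (M2621) and -0.76 (M2633). The mean over the 4 genotype and stage groups was -2.57 ± 0.44 (adjusted p = 0.000879, edgeR), and -3.13 by sample record (adjusted p = 0.0219). Gas6 went the other way and was higher in the brainstem-labelled library in 10 of 10 mice, by 0.18 (M2621) to 0.99 (M2624) on the log2 scale. Its mean difference was 0.52 ± 0.11 (adjusted p = 0.00367), 0.51 by sample record (adjusted p = 0.0153), and 0.66 without the 4 mice of uncertain genotype (adjusted p = 0.0579). Thus 1 of 5 members was called higher and 1 lower, where 6.51% of all genes were called higher and 7.53% lower. Mertk was higher in the brainstem-labelled library in 7 of 10 mice (0.13 ± 0.10, adjusted p = 0.431) and Pros1 in 2 of 10 (-0.10 ± 0.09, adjusted p = 0.492). With mouse as a fixed block the values were -2.78 for Axl (adjusted p = 8.24e-06) and 0.52 for Gas6 (adjusted p = 0.00173).

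**Figure D5:**
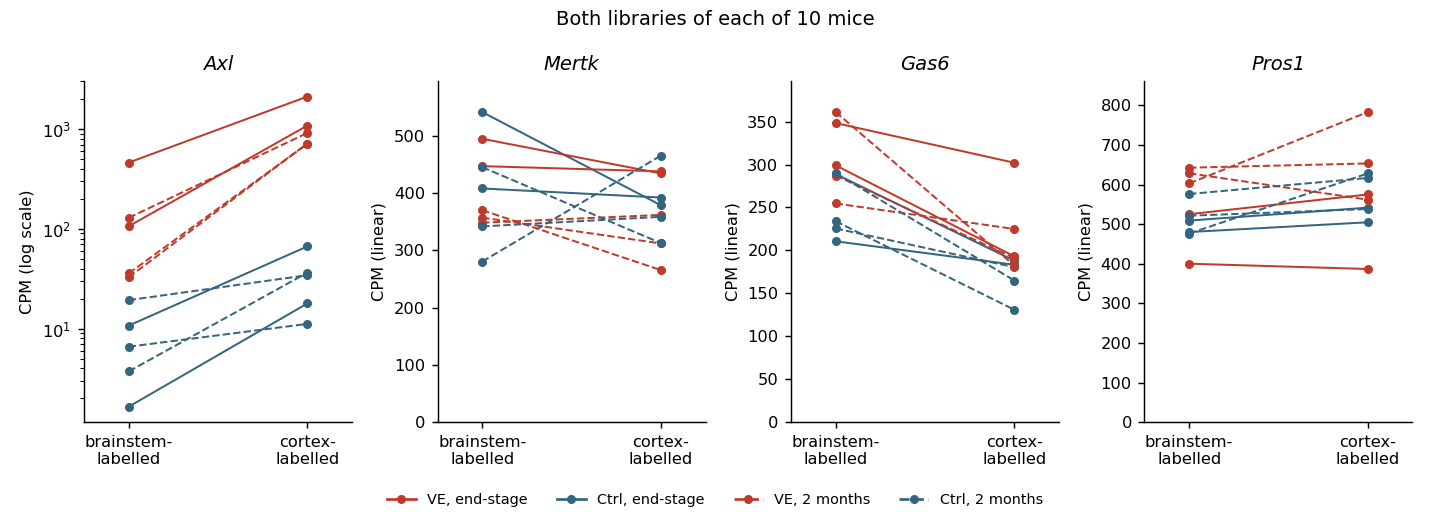
CPM in the brainstem-labelled and cortex-labelled library of each of 10 mice (Axl on a log scale, the others on a linear scale), each line 1 mouse, red for VE and blue for Ctrl by mouse number, solid for end-stage and dashed for 2 months. Axl lines rise and Gas6 lines fall toward the cortex-labelled library in all 10 mice, while Mertk and Pros1 lines cross.

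Whether the genotype difference itself changed with region or stage was tested, and no member passed with the low-count filter. For region at end-stage the change in the Axl difference (brainstem-labelled minus cortex-labelled) was 0.27 ± 1.27, with 0 of 5 members and 0.0844% of all genes called, and 0 members and 882 genes at an unadjusted p under 0.05. At 2 months it was -2.10 ± 1.05 (adjusted p = 0.629), with 0 of 5 members and 0.0241% of all genes called, and 1 member (Tyro3) and 1381 genes at an unadjusted p under 0.05. For stage (end-stage minus 2 months) it was 0.40 ± 1.15 in cortex-labelled libraries, with 0 of 5 members and 0.265% of all genes called, and 0 members and 1645 genes at an unadjusted p under 0.05. In brainstem-labelled libraries it was 2.77 ± 1.21 (adjusted p = 1), with 0 of 5 members and 0.00603% of all genes called, and 1 member (Axl) and 733 genes at an unadjusted p under 0.05. DESeq2 and limma-voom called 0 members in all 4 of these comparisons. These fits, like the main test, do not use the pairing of libraries by mouse. Without a low-count filter Axl was called for region at 2 months (-2.10, SE 0.259) and for stage in brainstem-labelled libraries (2.79, SE 0.297), with standard errors several times smaller than those above.

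The end-stage and 2-month mice, compared within VE and within Ctrl, also differed in no member by this test. The Ctrl comparison is not within 1 genotype label, because M1375 differs in both alleles from the other Ctrl mice. In VE mice the Axl difference (end-stage minus 2 months) was 1.04 ± 0.79 in cortex-labelled libraries (adjusted p = 0.616) and 2.11 ± 0.80 in brainstem-labelled libraries (adjusted p = 0.388). Pros1 differed by -0.47 ± 0.18 (adjusted p = 0.224) and -0.43 ± 0.18 (adjusted p = 0.419) in the same order of regions. Mertk differed by 0.48 ± 0.20 (adjusted p = 0.269) and 0.39 ± 0.20 (adjusted p = 0.508), and none of these values passed the threshold. In the cortex-labelled comparison 0 of 5 members and 1.84% of all genes were called, and 2 members (Pros1 and Mertk) and 2340 genes had an unadjusted p under 0.05. In the brainstem-labelled one 0 of 5 members and 0.0422% of all genes were called, and 2 members (Axl and Pros1) and 1704 genes had an unadjusted p under 0.05. In Ctrl mice Axl differed by 0.64 ± 0.81 and -0.66 ± 0.88, and 0 of 5 members were called in either region, with 0 and 1 (Mertk) at an unadjusted p under 0.05. There, edgeR called 0% of all genes in both regions, with 1432 and 1367 at an unadjusted p under 0.05, while DESeq2 called 35 and 55 genes and limma-voom 0 in each. DESeq2 and limma-voom called 0 members in all 4 stage comparisons.

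Other engulfment genes were split in direction. In cortex-labelled VE libraries edgeR called 304 of all 16595 genes higher and 362 lower at end-stage. At 2 months it called 604 higher and 300 lower. Of 16 tested phosphatidylserine-binding and engulfment receptors, 2 rose and 1 fell in end-stage cortex-labelled VE libraries (list median -0.13, all genes 0.02). Cd300lf, a phosphatidylserine receptor of myeloid cells, averaged 178 ± 24 CPM in VE libraries and 10.2 ± 8.5 CPM in Ctrl libraries (SD, n = 2 each), a log2 difference of 4.10 ± 0.85 (adjusted p = 0.0100, edgeR). Its activating relative Cd300lb rose by 3.92 ± 1.07 (adjusted p = 0.0476), and the inhibitory Cd300a fell by 1.07 (adjusted p = 0.00866). At 2 months 2 rose and 2 fell in the same region (median -0.09, all genes -0.01). Cd36, a scavenger receptor, averaged 34.8 ± 6.1 CPM in VE libraries and 0.892 ± 0.49 CPM in Ctrl libraries (SD, n = 3 each), with a log2 difference of 5.25 ± 1.18 (adjusted p = 0.0124). Cd300lf rose by 3.56 (adjusted p = 0.00459), while Stab1, the phosphatidylserine receptor stabilin-1, fell by 0.91 (adjusted p = 0.0118) and Itgav, the integrin subunit that takes up cells bridged by Mfge8, fell by 0.59 (adjusted p = 0.0357).

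Of 13 tested genes of the engulfment machinery, Elmo1, an adaptor that activates Rac with Dock proteins, fell by 0.73 at end-stage (adjusted p = 0.0463) and by 0.68 at 2 months (adjusted p = 0.0178) in cortex-labelled VE libraries. Rhog, a small GTPase upstream of Elmo1, fell by 0.70 at end-stage (adjusted p = 0.0262). Of the 13, 0 rose in either comparison (medians -0.16 and -0.16), where 304 and 604 of all 16595 genes were called higher. Of 5 tested genes of receptor shedding, Rhbdf2, which carries the protease Adam17 to the surface, rose by 1.55 (adjusted p = 0.0490) and 1.33 (adjusted p = 0.0292), while Adam17 and Adam10 were not called. Siglece, an inhibitory receptor among 4 tested genes of signals that hold back engulfment, fell by 0.91 (adjusted p = 0.0393) and 1.18 (adjusted p = 0.00193). Plscr3, a scramblase relative of the mitochondrion and 1 of 8 tested scramblase and flippase genes, fell by 0.79 at end-stage (adjusted p = 0.0171), and 0 of the 8 passed at 2 months by edgeR, DESeq2 or limma-voom, with 0 at an unadjusted p under 0.05.

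The vitamin K cycle, which makes the carboxylated ligands able to bind phosphatidylserine, had 0 of 5 tested genes called by edgeR in all 4 genotype comparisons, with 3 and 1 at an unadjusted p under 0.05 in cortex-labelled libraries at end-stage and 2 months and 1 in each brainstem-labelled comparison. DESeq2 called 1 of them at end-stage in cortex-labelled libraries and limma-voom 0. Over all 16595 genes, 2951 (end-stage) and 3254 (2 months) had an unadjusted p under 0.05 in cortex-labelled libraries by edgeR. Of 9 tested genes through which TAM receptors damp cytokine signals, 0 were called at end-stage in cortex-labelled libraries by edgeR, DESeq2 or limma-voom, with 3 at an unadjusted p under 0.05, and 4 rose at 2 months. Among them were Socs1 (1.27 ± 0.23, adjusted p = 0.00330) and Socs3 (1.33 ± 0.33, adjusted p = 0.0254), feedback inhibitors of cytokine receptors, and Stat3 (0.63 ± 0.16, adjusted p = 0.0299). In brainstem-labelled libraries 0 genes of these 7 lists were called in VE against Ctrl mice by edgeR at either stage, with 14 of 60 tested genes at an unadjusted p under 0.05 at end-stage and 12 at 2 months, against 1731 and 1461 of all 16595 genes. DESeq2 called 2 at end-stage and 0 at 2 months, and limma-voom 0 at either stage. By sample record 0 of the calls on these lists remained in any genotype comparison.

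Interferon-inducible genes, of which Axl is also known to be one, rose beside Axl at 2 months. There 10 of 10 tested genes rose in cortex-labelled VE libraries, with a median log2 difference of 4.66 against -0.01 over all genes, and their sum spanned 2249 to 2406 CPM in VE libraries and 123 to 177 CPM in Ctrl libraries. At end-stage in the same region the sum was 440 to 1602 CPM in VE libraries and 217 to 374 CPM in Ctrl libraries. There the median difference was 2.12, with 0 of 10 called by edgeR, DESeq2 or limma-voom and 8 at an unadjusted p under 0.05. In brainstem-labelled libraries the sum was 367 to 1169 CPM in VE libraries and 89.0 to 139 CPM in Ctrl libraries at end-stage, and 172 to 612 CPM in VE libraries and 87.2 to 136 CPM in Ctrl libraries at 2 months. The groups overlapped at neither stage. The median differences there were 4.01 and 3.0, with 0 of 10 called by edgeR or limma-voom at either stage, 8 and 6 by DESeq2, and 10 and 9 at an unadjusted p under 0.05. Between regions 9 of 10 were lower in brainstem-labelled libraries, as Axl was, where 7.53% of all genes were. By sample record 1 of 10 was lower between regions, and 0 of 10 were called in each genotype comparison. Their part in the Axl result was not tested.

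Markers of other cells moved too, in some of the comparisons in which Axl did. The sum of 8 border-associated macrophage markers was 58.6 to 278 CPM in VE libraries and 22.8 to 28.1 CPM in Ctrl libraries in the end-stage cortex-labelled pair, with 0 of 8 markers called by edgeR, 1 by DESeq2, 0 by limma-voom and 1 at an unadjusted p under 0.05. In the 2-month cortex-labelled pair it was 68.7 to 116 CPM in VE libraries and 2.79 to 32.4 CPM in Ctrl libraries, with 1 of 8 called, Siglec1 (5.16 ± 1.09, adjusted p = 0.00917), and a list median of -1.95. Siglec1 alone made up nearly all of that VE sum, at 64.8 to 109 CPM, against 1.15 to 4.46 CPM in Ctrl libraries. At end-stage it was at 28.8 to 218 CPM in cortex-labelled VE libraries and 3.28 to 7.25 CPM in Ctrl libraries. Lyve1 was at 0 counts in the 2-month VE cortex-labelled libraries. Between regions 2 of 8 (Ms4a7 and Siglec1) were lower in brainstem-labelled libraries, where 7.53% of all genes were.

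The sum of 6 monocyte markers was 2.45 to 5.01 CPM in VE libraries and 0.424 to 7.19 CPM in Ctrl libraries in the end-stage cortex-labelled pair, where Ly6c2 and Chil3 were at 0 in both groups. At 2 months it was 59.7 to 101 CPM in VE libraries and 1.09 to 6.26 CPM in Ctrl libraries, with Plac8 called (5.65 ± 1.04, adjusted p = 0.00394). Plac8 alone made up nearly all of that VE sum, at 57.5 to 97.9 CPM, against 0.601 to 1.98 CPM in Ctrl libraries. By sample record 0 macrophage and 0 monocyte markers were called in each genotype comparison. All 4 neutrophil markers were at 0 counts in the 2-month VE cortex-labelled libraries. The sum of the 10 microglia markers was 34617 to 41744 CPM in VE libraries and 53490 to 57644 CPM in Ctrl libraries at end-stage, with 5 of 10 lower, and 49272 to 51105 CPM in VE libraries and 55958 to 57443 CPM in Ctrl libraries at 2 months, with 3 of 10 lower. At end-stage oligodendrocyte precursor markers, with Vcan shared with the monocyte list, summed to 37.3 to 88.8 CPM in VE libraries and 3.18 to 5.13 CPM in Ctrl libraries in the cortex-labelled pair. Nearly all of that VE sum was Cspg4 alone, at 37.0 to 87.8 CPM, against 0.212 to 1.16 CPM in Ctrl libraries. Endothelial and pericyte markers summed to 36.5 to 61.0 CPM in VE libraries and 24.5 to 38.0 CPM in Ctrl libraries there, with Cldn5 and Tek at 0 in both groups and 2 of 5 tested higher and 1 lower. In the 2-month cortex-labelled pair they summed to 66.4 to 74.1 CPM in VE libraries and 22.0 to 35.1 CPM in Ctrl libraries, with Flt1 and Kdr called higher. In brainstem-labelled libraries they summed to 73.3 to 78.7 CPM in VE libraries and 58.6 to 61.9 CPM in Ctrl libraries at end-stage, and to 111 to 121 CPM in VE libraries and 55.8 to 69.3 CPM in Ctrl libraries at 2 months. There edgeR called 0 of 5 at either stage and DESeq2 0 and 1, with 1 and 2 at an unadjusted p under 0.05. The groups did not overlap in these last 3 pairs. Pecam1 made up most of the brainstem-labelled sums. It was at 51.1 to 61.0 CPM in VE libraries and 41.1 to 51.9 CPM in Ctrl libraries there at end-stage. Its 2-month values there were 93.1 to 115 CPM in VE libraries and 39.1 to 62.0 CPM in Ctrl libraries.

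Some B-cell markers were lower in cortex-labelled VE libraries. The list summed to 275 to 279 CPM in VE libraries and 766 to 842 CPM in Ctrl libraries in the end-stage cortex-labelled pair, with 2 of 3 tested lower (Cd79b and Ighm). In the 2-month cortex-labelled pair it summed to 423 to 633 CPM in VE libraries and 656 to 766 CPM in Ctrl libraries, with 1 of 3 lower (Cd79b). Ighm alone made up nearly all of these sums. It was at 259 to 267 CPM (VE) and 719 to 775 CPM (Ctrl) at end-stage. Its 2-month values were 399 to 616 CPM (VE) and 587 to 723 CPM (Ctrl). Ms4a1 was at 0 counts in the end-stage Ctrl group and in both 2-month groups of these pairs. In the end-stage cortex-labelled pair the 1 tested T and NK cell marker, Klrd1, was also lower (-4.55, adjusted p = 0.0324), while Gfap, 1 of 5 tested astrocyte markers, and Cspg4, 1 of 3 tested oligodendrocyte precursor markers, were higher (5.22 and 6.40, adjusted p = 0.0153 and 0.0349). Gfap was at 2.51 to 11.4 CPM in those VE libraries. The astrocyte list as a whole overlapped there, with sums of 220 to 735 CPM in VE libraries and 132 to 1140 CPM in Ctrl libraries. Between regions 5 of 10 microglia markers were higher in brainstem-labelled libraries, where 6.51% of all genes were. Lower there were 4 of 6 oligodendrocyte markers and 2 of 5 tested astrocyte markers, where 7.53% of all genes were. The part of these cells in the Axl and Gas6 results was not tested.

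Across the 20 libraries, which share mice in pairs, the genes whose log2 CPM ran most like a member's were found among 9810 genes by Pearson's r, given here as a description. For Axl they were Cybb, the catalytic subunit of the phagocyte NADPH oxidase (0.955), Lgals3bp, a secreted galectin-binding protein (0.949), and Cd36 (0.947). Mertk ran most like Sos1, an activator of Ras (0.839), Nr2c2, a nuclear receptor (0.806), and Tsc1, an inhibitor of mTOR signalling (0.801). Gas6 ran most like Mgrn1, a ubiquitin ligase (0.882), Aars, the alanine-tRNA ligase (0.862), and Cerk, which makes ceramide phosphate (0.852). Pros1 ran most like Pdia3, a folding enzyme of the endoplasmic reticulum (0.837), Actr3, a subunit of the actin-nucleating complex (0.787), and Cnpy4, which aids the folding of Toll-like receptors (0.771). Tyro3 is left out here because 14 of its 20 values were 3 counts or fewer. Between the other 4 members r lay between -0.281 (Mertk and Pros1) and 0.217 (Mertk and Gas6).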

How the data were processed

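Raw counts per Ensembl gene were deposited as a single matrix whose 20 columns are the libraries, per the file headers. FastQC, Subread, edgeR and the build mm10 (GRCm38) are named in the submitters' processing notes, with no versions or settings given in the sources used here. Libraries came from SMART-Seq v4 amplification and paired reads, per the labels' protocols. The kit does not mark strand, counts include PCR copies, and floors cover counting error only. Of 55487 identifiers 55094 were given a symbol, and the 393 without one held 0.621% of counts. All 20 count columns were used.

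Counts were scaled to CPM with TMM factors. The tests used edgeR 4.0.16 in R 4.3.3 (filterByExpr, 16595 genes, quasi-likelihood test, 8 groups sharing 1 spread, Benjamini-Hochberg threshold 0.05), with DESeq2 1.42.0 and limma 3.58.1 as alternatives. Standard errors given with edgeR differences were derived as the absolute log2 difference over the square root of the F statistic. The fit was tested on simulated data. The members and lists were chosen with earlier results of these data known. Both libraries of a mouse come from 1 animal, and their deviations from the group means correlated by 0.101 to 0.265 in all 10 mice. P-values of the main test measure the spread between libraries within the 8 groups. That test does not use the pairing of libraries by mouse. Alternatives were the replicate block, other normalizations and tools, no filter, only the groups compared, each mouse left out and the sample record's genotypes. Named pathway genes are those past the threshold in a genotype comparison, at most 5 per list and comparison. The values of 1 such gene are not reported here. Genes like a member are the 3 of highest r among genes averaging 1 or more in log2 CPM, with predicted genes, Riken clones and pseudogenes left out. Exonic lengths come from GENCODE M21.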

Additional observations from a re-analysis of the deposited data

Results flagged for a closer look

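Pecam1, an adhesion molecule and part of the endothelial and pericyte list, had a genotype difference in cortex-labelled libraries that changed with stage. The change (end-stage minus 2 months) was -2.43 ± 0.48 on the log2 scale, with an adjusted p of 0.0408 in edgeR's test of the difference itself, and it rests on the mouse-number reading of the 2-month labels.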

How the results depend on the processing

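Of the results for Axl, 219 kept their direction and their side of the threshold over the alternatives tried, 10 moved past it, 3 fell short of it and 5 changed sign. For Gas6 158 kept both, 1 fell short and 4 changed sign, while 4 for Mertk, 2 for Pros1 and 1 for Tyro3 changed sign. Called members at end-stage in cortex-labelled libraries numbered 1, against 0 by sample record and 0 to 1 with each mouse left out, 0 being without M1375. At end-stage in brainstem-labelled libraries they numbered 0, against 1 with DESeq2 or no low-count filter and 0 to 1 with each mouse left out. At 2 months in cortex-labelled libraries they numbered 1, against 2 with limma-voom, with limma-voom and a random replicate block or with no filter, and 0 by sample record or without the 4 mice whose genotype differs between readings. Without a filter 1 member instead of 0 was called in the 2-month brainstem-labelled comparison, in genotype by region at 2 months, in genotype by stage in brainstem-labelled libraries and in VE mice by stage in each region. Between regions 2 were called, against 1 without the 4 mice. The cause of these changes was not tested. With no filter the standard error of Axl at end-stage in brainstem-labelled libraries was 0.268.

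By sample record the log2 differences at 2 months were -1.13 and -1.98 for Axl, 0.41 and -0.27 for Mertk, and -0.051 for Gas6 and 0.32 for Tyro3 (cortex-labelled) and -0.21 for Pros1 (brainstem-labelled), and Axl differed by stage in cortex-labelled Ctrl libraries by -3.71. Without the 4 mice, Mertk differed by 0.22 and -0.36 at 2 months and Gas6 by -0.16 by stage in brainstem-labelled VE libraries. With each mouse left out, Pros1 at end-stage in cortex-labelled libraries spanned -0.44 to 0.14. Over stages, Gas6 spanned -0.042 to 0.60 in cortex-labelled VE libraries and -0.25 to 0.21 in brainstem-labelled Ctrl libraries, and Axl -0.62 to 1.30 in cortex-labelled and -2.58 to 0.30 in brainstem-labelled Ctrl libraries.

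With mouse as a random replicate block, Tyro3 at 2 months in cortex-labelled libraries was called (adjusted p = 0.0327, limma-voom) and no other member's call changed. As said above, a test of Tyro3 lends no support to a difference. With a fixed replicate block, possible only within mice, the region differences were -2.78 for Axl and 0.52 for Gas6. Over all genes, 666 were called at end-stage in cortex-labelled libraries, against 1282 without a filter, 1203 with DESeq2, 171 by sample record, 352 without the 4 mice and 180 to 672 with each mouse left out. At end-stage in brainstem-labelled libraries 25 were called, against 574 without a filter, 354 with DESeq2, 15 with limma-voom, 42 with the random replicate block, 4 with only the groups compared, 1 by sample record and 7 to 43 with each mouse left out. At 2 months 904 were called in cortex-labelled libraries, against 1551 without a filter, 1562 with DESeq2, 1 by sample record, 1 without the 4 mice and 462 to 962 with each mouse left out. At 2 months 6 were called in brainstem-labelled libraries, against 499 without a filter, 198 with DESeq2, 11 with limma-voom with or without the block, 2 with only the groups compared, 1 by sample record, 1 without the 4 mice and 0 to 12 with each mouse left out. Between regions 2330 were called, against 494 without the 4 mice and 1449 to 2142 with each mouse left out. In genotype by region 14 were called at end-stage and 4 at 2 months, against 221 and 350 without a filter, 89 and 98 with DESeq2, 63 and 120 with the fixed replicate block, 0 and 0 by sample record, and 0 to 15 and 0 to 8 with each mouse left out. The 0 at end-stage was without M1375 or M1521, and at 2 months without each 2-month mouse but M2633. In genotype by stage 44 were called (cortex-labelled) and 1 (brainstem-labelled), against 565 and 190 without a filter, 242 and 14 with DESeq2, 75 and 4 by sample record, and 10 (without M1375) to 108 (without M1524) and 0 to 1 with each mouse left out. By stage in VE mice 305 and 7 were called in the same order, against 963 and 423 without a filter, 776 and 196 with DESeq2, 590 and 19 with limma-voom, 24 and 9 without the 4 mice, and 96 (without M1376) to 285 and 2 (without M2624) to 13 (without M1524) with each mouse left out. In Ctrl mice 0 and 0 were called, against 282 and 270 without a filter and 0 to 3 and 0 to 2 with each mouse left out. Tyro3 had 16 counts or fewer in each library, and Axl 27 in its lowest.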
